A study of Mus musculus with 4 samples.

Results

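Promoters of protein-coding genes were examined in long-term hematopoietic stem cells (LT-HSCs) by single-cell ATAC-seq, in which the Tn5 transposase cuts accessible DNA and each cut site is counted. A promoter peak was an accessible region with any overlap with the 1000 bp on either side of a GENCODE transcript start in GRCm38, for transcripts that code for protein. Of 93513 peaks in the table, 16802 met this definition. The table belongs to the CLCA3A1high and CLCA3A1low LT-HSCs, sorted with an antibody against the surface protein CLCA3A1 from old C57BL/6JRj mice aged 22 to 28 months, which were female by the study's methods for isolating these cells. Each of these samples was 1 pool of 2500 cells from each of 4 mice, with no genetic change or treatment in the labels. The barcodes carry suffix 1 (818 cells) or suffix 2 (636 cells), called barcode set 1 and barcode set 2, and no label ties a suffix to a sample. The sets therefore have no group direction, each is 1 library without a replicate, and no p-value is given. The sets shared 0 barcodes.

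A promoter is the stretch of DNA around a transcription start where general factors and RNA polymerase assemble, and it is read by the transposase when nucleosomes have been moved aside. Many mammalian promoters lie in CpG islands, which are commonly kept open across cell types, whereas promoters poor in CpG are more often opened in particular tissues. An open promoter is not the same as a transcribed gene, because the promoters of silent developmental genes in CpG islands can also be accessible.

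The windows of 4 promoters are shown as examples of a widely open promoter, a promoter with more signal in each of the barcode sets, and a promoter without a peak. Each runs from 250 bases before to 50 bases after a transcript start in RefSeq's GRCm38 sequence, 5′ to 3′ along the gene. Capitals mark the 13 motif words that were searched, and a match describes letters only, not a bound site.
Sin3a: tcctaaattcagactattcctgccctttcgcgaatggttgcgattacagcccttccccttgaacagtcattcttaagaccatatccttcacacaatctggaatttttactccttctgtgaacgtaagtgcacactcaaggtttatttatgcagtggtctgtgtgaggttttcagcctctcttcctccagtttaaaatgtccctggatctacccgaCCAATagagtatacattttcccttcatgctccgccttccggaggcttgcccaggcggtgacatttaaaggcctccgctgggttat
Vwf: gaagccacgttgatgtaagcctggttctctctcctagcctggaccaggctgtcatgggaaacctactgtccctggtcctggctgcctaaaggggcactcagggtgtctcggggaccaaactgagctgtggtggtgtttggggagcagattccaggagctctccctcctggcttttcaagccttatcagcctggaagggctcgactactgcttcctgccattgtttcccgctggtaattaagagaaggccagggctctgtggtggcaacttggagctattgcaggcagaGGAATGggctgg
Nlrc3: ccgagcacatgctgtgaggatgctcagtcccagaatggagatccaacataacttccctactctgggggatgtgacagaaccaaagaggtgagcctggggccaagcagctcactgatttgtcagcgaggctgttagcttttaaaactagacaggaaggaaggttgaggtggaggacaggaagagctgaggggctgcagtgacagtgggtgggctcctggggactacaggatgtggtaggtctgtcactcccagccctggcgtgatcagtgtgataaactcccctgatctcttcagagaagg
Alb: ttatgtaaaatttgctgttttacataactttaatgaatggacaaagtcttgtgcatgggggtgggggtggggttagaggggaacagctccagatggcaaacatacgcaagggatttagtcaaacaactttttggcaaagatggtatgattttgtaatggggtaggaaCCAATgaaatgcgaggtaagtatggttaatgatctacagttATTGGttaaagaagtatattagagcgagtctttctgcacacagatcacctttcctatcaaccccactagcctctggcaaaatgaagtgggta

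The Sin3a window lies at chr9:57075088-57075387 on the plus strand, and holds 9 CpG dinucleotides and 1 CCAAT word at position -35, where the first base of the transcript is 1. The Vwf window, chr6:125552698-125552997 on the plus strand, holds 4 CpG and 1 CATTCC word, read on the opposite strand, at position 39. The Nlrc3 window, chr16:3976496-3976795 on the minus strand, holds 3 CpG and 0 of the words. The Alb window, chr5:90460647-90460946 on the plus strand, holds 3 CpG and 2 CCAAT words, at positions -83 and -42.

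Promoter peaks were open in far more cells than other peaks, but most were seen in a minority of cells. To compare cells of unequal depth, each cell was thinned to 4899 counts, which left 1309 cells (749 of set 1 and 560 of set 2). The median promoter peak had a cut site in 8.79% of these cells, against 1.22% for the 76711 other peaks. The quartiles of the promoter peaks were 3.44% and 15.6%, and the range from the 5th to the 95th percentile was 0.458% to 28.9%. At full depth, over all 1454 cells, the median was 15.7%, so the absolute share depends on sequencing depth, while the order of promoter over other peaks held at both depths. In 47 promoter peaks more than 50% of the thinned cells had a cut site, and in 1719 (10.2%) fewer than 1% did. A cell thinned to this depth had a median of 1850 open promoter peaks in set 1 and 1835 in set 2, with 5th to 95th percentiles of 1318 to 2173 and 1337 to 2206. Thinning brings cells to a like depth, and without it the 5th percentiles were 926 and 565 open promoter peaks.

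**Figure D1:**
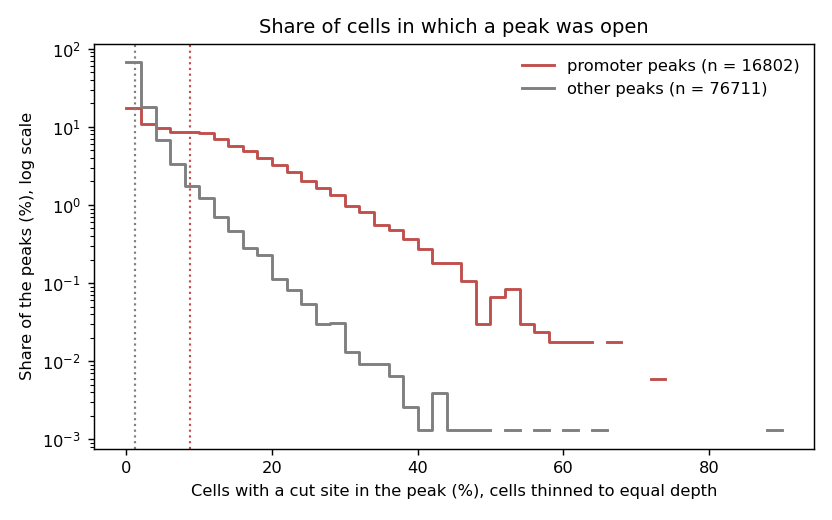
The horizontal axis gives the percentage of thinned cells with a cut site in a peak, and the vertical axis, on a log scale, the percentage of the 16802 promoter peaks (red) or 76711 other peaks (grey) in each 2% step. Dotted lines mark the medians, 8.79% for promoter peaks and 1.22% for other peaks, and the promoter curve lies above the other from about 4% of cells onwards, with the exception of single other peaks at the far right.

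Promoter peaks were also wider, and the part of width in the difference in share of cells was not tested. Promoter peaks had a median width of 1517 bp and other peaks of 479 bp. Per kb of peak, the medians were 14 and 7.37 FPM, which are estimated fragments per 1000000 fragments in all peaks of the table. The narrowest 4205 promoter peaks were open in a median of 1.38% of cells and the widest 4199 in 16.7%. Signal was also concentrated: the top 10% of promoter peaks (1680) held 30.7% of all promoter fragments, and the lower 50% held 16.6%. A peak that covered a transcript start was open in a median of 10.2% of cells (14571 peaks), whereas the 1193 peaks that missed the start by up to 500 bp had a median of 0.84%. At the edge of the definition, the 556 peaks in the outermost 250 bp of the window had a median of 1.07%, as did the 714 peaks in the next 250 bp beyond it, which were not counted as promoter peaks.

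The 8 most open promoter peaks were each open in over 60% of thinned cells. Sin3a encodes the scaffold of a histone deacetylase corepressor, and its 6436 bp peak was open in 72.3% of thinned cells (95% exact interval 69.8% to 74.8%), with 71.7% in set 1 and 73.2% in set 2. Ppp2r3d, which encodes a regulatory subunit of protein phosphatase 2A, followed at 66.5%. The peak of Hjurp, the chaperone that loads the centromeric histone, stood at 66.3%, and that of the circadian gene Per1 at 66%. These peaks spanned 20967 bp and 17696 bp, and per kb they held 14.3 and 15.95 FPM, close to the promoter median, against 48.4 for Sin3a and 70.4 for Ppp2r3d. Ing1, a reader of histone methylation, reached 63.6%. Zfp36, which promotes decay of inflammatory mRNAs, reached 63.2%, and Jun, a subunit of the AP-1 factor, 62.9%. The last of the 8 was a peak over the starts of Cep95, Ddx5 and Polg2 at 61.4%. In all 8 the counting interval of the ratio between the sets, defined below, included 1.

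The early response genes as a list were the most open of the 29 lists examined. These genes, which include the AP-1 subunits, are induced within minutes when cells are stressed or handled. All 17 had a promoter peak, and the median over their most covered peaks was 47.8% of cells, against 11.0% over all 15412 genes with a promoter peak. The lowest members were Fosl1 at 9.78% and Atf3 at 17.9%. Fosb stood at 56.8%, Jund at 59.4% and Ier2 at 58.4%. Of the 19 peaks of the list, 0 were called between the sets, where 1.17% and 1.495% of all tested promoter peaks were called higher in set 1 and set 2, so that a list of this size would hold few calls.

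Housekeeping families had open promoters throughout. Peaks were found at 82 of 84 cytosolic ribosomal protein genes, 78 of 78 mitochondrial ribosomal protein genes, 36 of 36 subunits of NADH dehydrogenase and 38 of 39 proteasome subunits. Median shares were 14.8%, 10.8%, 11.5% and 14% of cells, in that order. The exceptions at the lower end were tissue-restricted paralogs. Rpl3l, the muscle paralog of Rpl3, was open in 0.0764% of cells, and Psma8, the testis proteasome subunit, had 1 fragment in all cells together. Psmb11, the thymus subunit, had no promoter peak. Within the ribosomal list the highest was Rpl41 at 40.6%. Cell cycle genes, 20 of 20 with a peak and a median of 17.7%, ranged from Cdkn2a, the senescence locus, at 4.35% and Cdkn1c at 11.2% to Ccnd3 at 37.7% and Ccnd2 at 41.5%.

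The cell type given by the labels was checked through promoters of marker genes. Of all protein-coding genes 70.4% had a promoter peak, as did all 12 neuron genes, so a peak alone marks no cell type. Of 12 LT-HSC markers, 11 had a promoter peak. Gata2, a transcription factor of stem cells, had the most open of these, in 29.1% of cells, followed by Mecom at 28.0%, Meis1 at 23.0%, Mllt3 at 21.9% and the receptor gene Kit at 20.9%. The genes of the surface proteins EPCR and CD150, Procr and Slamf1, stood at 3.59% and 1.76%. No peak was found at Ly6a, which encodes SCA-1. Only 44.8% of the 31-base words of its start window occur once in the genome, and the nearest peak lay 4887 bp away.

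Markers of other lineages ranged widely. Cd3e, Cd3g, Cd4 and Cd8a of T cells, Ms4a1 of B cells, Ly6g and S100a8 of neutrophils, and Hbb-bs and Slc4a1 of erythroid cells had no promoter peak. S100a9 had a peak with 2 fragments in set 1 and 0 in set 2. Other markers were open, among them the platelet genes Gp1bb at 19.3% and Pf4 at 11.5%, the erythroid factor Klf1 at 12.99%, and the B-cell factors Pax5 at 8.79% and Ebf1 at 6.88%. The neutrophil granule genes Elane and Prtn3 share 1 peak, at 13.7%. All 8 endothelial or stromal genes had a peak, from Cdh5 at 1.6% to Col1a1 at 9.09%.

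No promoter peak was found at 6476 of 21888 protein-coding genes, or 29.6% (95% exact interval 28.98% to 30.2%). Of these genes, 1582 belonged to 5 large sensory and barrier families. Peaks occurred at 25 of 1096 olfactory receptor genes, 1 of 326 vomeronasal receptor genes, 2 of 38 taste receptor genes, 3 of 42 beta-defensin genes and 0 of 57 keratin-associated protein genes. The single vomeronasal peak, at Vmn1r4, also covers the start of Nt5c3 and was open in 21.5% of cells. Among the olfactory receptor genes the most open was Olfr646 at 13.9%, next to Olfr552 at 10.2%. Without these 5 families, 4894 of 20275 genes (24.1%) had no promoter peak.

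**Figure D2:**
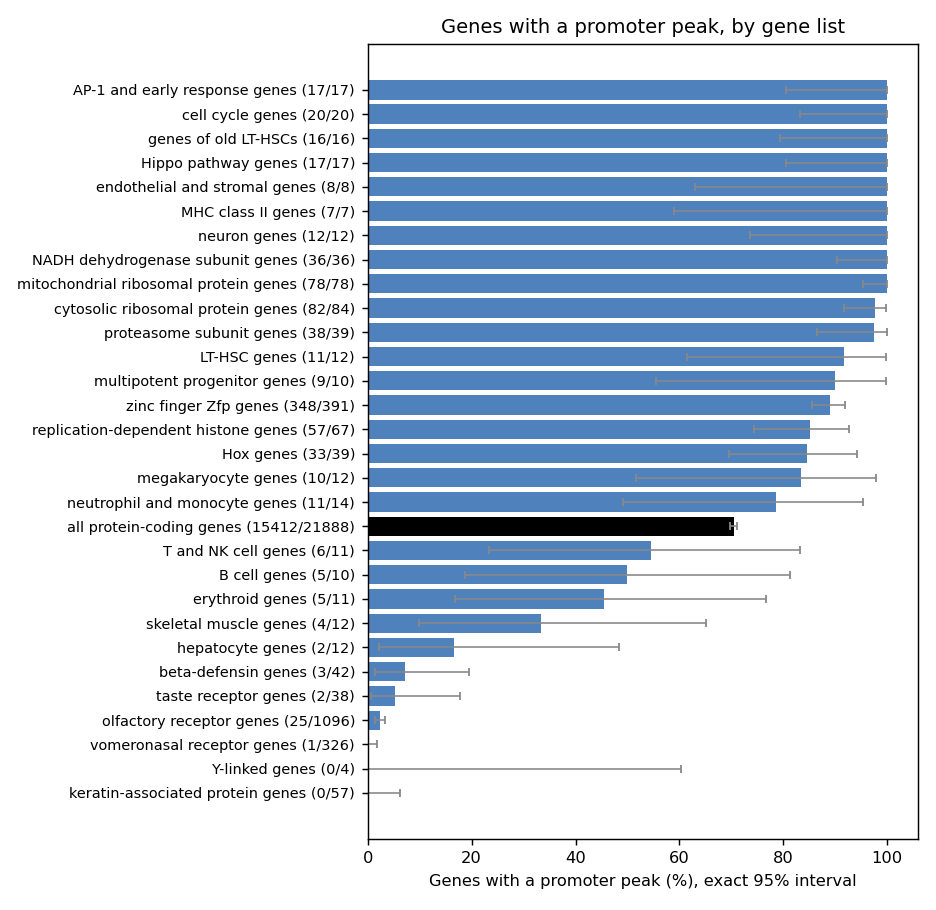
Bars give the percentage of the genes of each list that had a promoter peak, with the numbers in brackets and exact 95% intervals, and the black bar gives all 21888 protein-coding genes at 70.4%. Housekeeping, cell cycle, Hippo pathway and early response lists reach or approach 100%, while sensory receptor, beta-defensin and keratin-associated genes lie under 10%.

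Genes of other organs differed among themselves. Of 12 hepatocyte genes, 2 had a promoter peak, Apoa1 at 7.64% and Ahsg at 2.60%, and Alb, which encodes albumin and whose window is printed above, had none, the nearest peak lying 16471 bp away. Of 12 skeletal muscle genes, 4 had one: Mylpf at 30.2%, Actn3 at 17.0%, Tnni2 at 5.58% and Tnnt3 at 1.99%. The myogenic factors Myod1 and Myog had none. By contrast, all 12 neuron genes had a promoter peak, but with a median of 2.86% of cells, from Nefm and Stmn2 at 1.38% to Syt1, a synaptic vesicle protein gene, at 5.19% and Gad2 at 7.03%. The median CpG ratio of the neuron list was 0.698, against 0.225 for the hepatocyte list and 0.326 for the muscle list. The ratio divides the CpG found by the number expected from the C and G content of the window.

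Hox genes, which set positional identity in the embryo, lay between these patterns: 33 of 39 had a promoter peak, with a median of 2.98%. Those of the A cluster included the most open members, Hoxa7 at 22.4% and Hoxa3 at 19.2%. Hoxc8 had 0 fragments in set 1 and 1 in set 2, and Hoxc11 was open in 0.306% of cells. Hoxb13, Hoxb3, Hoxc12, Hoxc6, Hoxd10 and Hoxd12 had no peak. Replication-dependent histone genes, which share peaks in dense clusters, had a peak at 57 of 67 genes through 36 different peaks, with a median of 15.1%. The highest was the peak shared by Hist1h1a, Hist1h3a and Hist1h4a at 33.6%, and the lowest that of Hist2h3c2 at 0.458%. Members of the MHC class II list, 7 of 7 with a peak, ran from Ciita, the master regulator of the class, at 4.43% to H2-DMa at 39.6%.

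Genes with and without a promoter peak differed in CpG content. In the 300-base window of each gene's main start, the median ratio of observed over expected CpG was 0.720 for genes with a promoter peak and 0.157 for genes without. Among 10222 genes with a ratio of at least 0.6, called CpG-rich, 97.2% had a promoter peak, and among the 11666 CpG-poor genes 46.9% did. Promoter peaks whose gene was CpG-rich at its main start were open in a median of 11.2% of cells, and those of CpG-poor genes in 4.97%. Peaks shared by 2 or more genes on opposite strands (1300 peaks) had a median of 16.2%, against 8.17% for the 15340 peaks of a single gene. The medians of the widths in these classes were 1862 and 1474 bp.

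Only 283 CpG-rich genes had no promoter peak. In 207 of these at least 50% of the 31-base words of the window were unique. The 5 highest by CpG ratio were Kdm5d and Ddx3y, both on the Y chromosome, which female mice lack, Jph3, Tfap2b and Tex11. Across all genes without a peak, 1435 (22.2%) had windows with under 50% unique words, against 135 (0.876%) of the genes with a peak. Whether peaks were missed in repeated sequence was not tested. On the Y chromosome, which the cells of female mice lack, 0 of 183 genes had a promoter peak, and without these genes the share with no promoter peak was 28.99%. A promoter peak was found on the X chromosome at 52.2% of 948 genes, and on the autosomes at between 58.1% (chromosome 14) and 82.5% (chromosome 12).

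**Figure D3:**
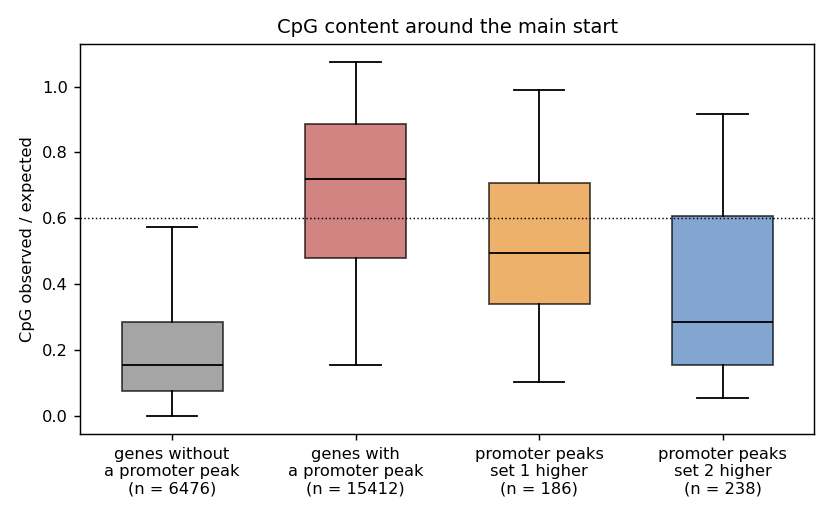
Boxes show the ratio of observed over expected CpG in the 300 bases around a gene's main start (box, quartiles; line, median; whiskers, 5th and 95th percentiles), with the limit of 0.6 dotted. Genes without a promoter peak have a median of 0.157 and genes with one 0.720, and promoter peaks higher in set 1 or set 2 have 0.496 and 0.286.

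Words were searched on both strands of the windows. Among them GGGCGG is the word of SP and KLF factors, CCAAT that of the factor NF-Y and CCGGAAGT that of ETS factors. GAGGAAGT is the word of the hematopoietic factor PU.1 and shares its last 6 letters with the ETS word. GCGCATGC is read by NRF1, AAGATGGC by the factor YY1 and TGACGTCA by the CREB family. CACGTG is the E-box, AGATAAG the word of the GATA factors and TGTGGTT that of the RUNX factors. TGAGTCA is the AP-1 word and CATTCC the word of the TEAD partners of YAP and TAZ. The TATA box word TATAAA was searched on the strand of the gene alone. GGGCGG occurred in 45.3% of all windows, in 60.4% of those with a promoter peak and 9.30% of those without. Among CpG-poor windows alone the shares were 34.8% and 7.51%. CCGGAAGT stood at 6.67% with and 1.00% without a peak (4.99% of all). TATAAA went the other way, with 4.86% against 17.9% (8.73% of all), and so did AGATAAG with 1.93% against 4.45% (2.68% of all). GAGGAAGT stood at 2.93% and 3.77% (3.18% of all). CCAAT stood at 37.2% and 41.8%, as a share of windows with and without a peak (38.6% of all). In a longer window, from 500 bases before to 100 after the start, the shares of TATAAA were 10.6% with and 30.03% without a peak, of AGATAAG 4.65% and 8.85%, and of GAGGAAGT 4.61% and 5.16%.

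Promoter peaks were compared between the barcode sets by estimated fragments, scaled to all fragments in peaks (6806557 in set 1 and 5141614 in set 2). A peak was called when the ratio was at least 2-fold and its exact counting interval, set at an error rate of 0.001, excluded 1. These intervals treat fragments as independent and cover counting error only. Of 15918 promoter peaks with at least 20 fragments, 186 (1.17%) were higher in set 1 and 238 (1.495%) in set 2. Over all 75728 peaks tested the shares were 3.61% and 5.26%, so the promoter shares were below the shares over all peaks. The other 884 promoter peaks held too few fragments to be tested. The promoter median of the log2 ratio was 0.01, with 5th and 95th percentiles of -0.65 and 0.75, against -1.64 and 1.46 for other peaks.

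Promoter shares were also the lower ones at like numbers of fragments. In peaks with at least 200 and under 500 fragments, 0.562% of promoter peaks were higher in set 1 and 0.221% in set 2, against 4.18% and 2.69% of other peaks. With at least 100 and under 200 fragments the shares were 2.69% and 2.33% against 6.75% and 7.0008%. With at least 20 and under 50 fragments, where only large ratios can be called, they were 1.61% and 5.93% against 2.63% and 6.09%. No promoter peak with 1000 or more fragments (935 peaks) was called, and the interval lay above 1 in 2.03% of them and below 1 in 4.49%.

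**Figure D4:**
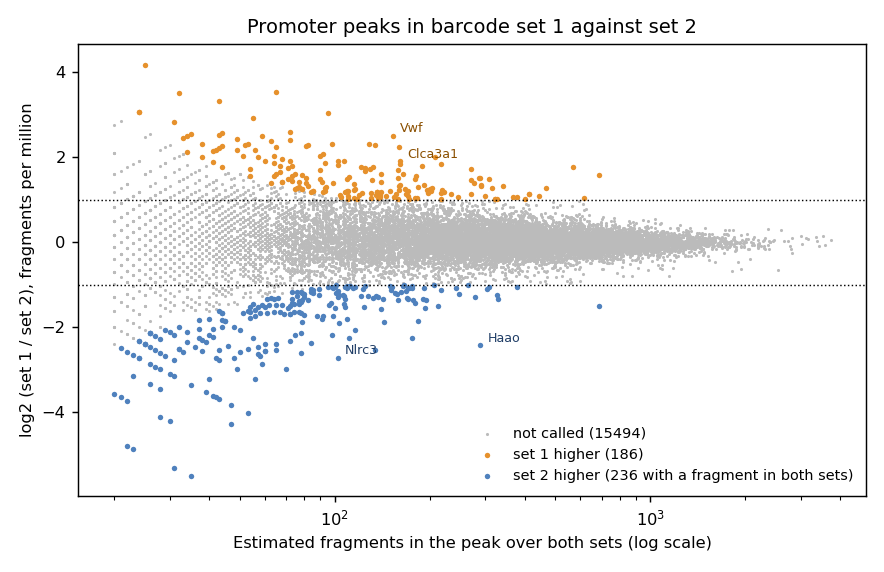
Each point is a promoter peak with at least 20 fragments, placed by its estimated fragments over both sets (log scale) and by its log2 ratio of FPM in set 1 over set 2. Orange and blue points are the 186 and 236 called peaks with a fragment in both sets (2 further peaks higher in set 2 had 0 fragments in set 1), dotted lines mark the 2-fold limits, and the spread narrows towards peaks with many fragments.

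Among called promoters with at least 100 fragments, 104 were higher in set 1 and 73 in set 2. The largest ratio towards set 1 among these was at Vwf, which encodes the platelet adhesion protein von Willebrand factor. Its peak, chr6:125552017-125553338, overlaps the transcript start and held 135 fragments in set 1 (19.8 FPM) and 18 in set 2 (3.50 FPM). The log2 ratio was 2.50 (interval 1.38 to 3.88), and 5.74% and 1.25% of the thinned cells had a cut site. Kcnb2, a potassium channel gene, had 111 and 17 fragments and a log2 ratio of 2.30. A peak at an alternative start of Clu, the gene of the secreted chaperone clusterin, had 116 and 18 fragments and a ratio of 2.28. At Clca3a1, the gene of the protein used to sort the samples, the peak chr3:144760541-144761718 held 134 and 27 fragments, for a log2 ratio of 1.91 (0.94 to 3.03). Its peak was open in 6.68% of thinned cells of set 1 and 2.14% of set 2. At full depth the shares in set 1 and set 2 were 13.4% and 2.36% for Vwf and 13.2% and 4.09% for Clca3a1.

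The other promoters of this group follow, and the functions of called promoters were not tested as a set. Fam84a had 138 fragments in set 1 and 22 in set 2, and Wwp2, which encodes a ubiquitin ligase, 175 and 33. A peak near the starts of Neu2 and Ngef had 85 and 17, and Usp13, a deubiquitinase gene, 89 and 18. Unc5d, a netrin receptor gene, had 133 and 28, and Pfkfb2, which controls glycolytic flux, 179 and 38. The log2 ratios of these called peaks ran from 2.24 for Fam84a down to 1.83 for Pfkfb2. In all 10 the counting intervals of the levels in the sets did not overlap, which follows from choosing called promoters.

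Among the promoters higher in set 2 with at least 100 fragments, the largest ratio was at Nlrc3, a regulator of innate immune signaling. Its peak, chr16:3976003-3976933, held 17 fragments in set 1 (2.50 FPM) and 85 in set 2 (16.5 FPM), for a log2 ratio of -2.73 (-4.19 to -1.52), and 1.2016% and 5.71% of thinned cells had a cut site. Ncf4, a subunit of the phagocyte oxidase, had 25 and 109 fragments (-2.53), and Cd33, a myeloid surface lectin, 38 and 137 (-2.25). Lat2, an adaptor of immune receptors, had 28 and 88 (-2.06), and Nlrp1b, an inflammasome sensor, 30 and 79 (-1.80). Haao, which encodes an enzyme of tryptophan breakdown, had the highest level of the 10, with 57 fragments in set 1 (8.37 FPM) and 232 in set 2 (45.1 FPM), and a log2 ratio of -2.43 (-3.18 to -1.74). Evpl (24 and 87), 6030468B19Rik (27 and 76), Kcnn1 (38 and 105) and C1qtnf3 (49 and 134) completed the group. The peaks of Kcnn1 and C1qtnf3 lie 998 and 919 bp from the nearest start. Another promoter peak of Kcnn1 had 267 and 248 fragments (log2 ratio -0.30, -0.72 to 0.13).

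**Figure D5:**
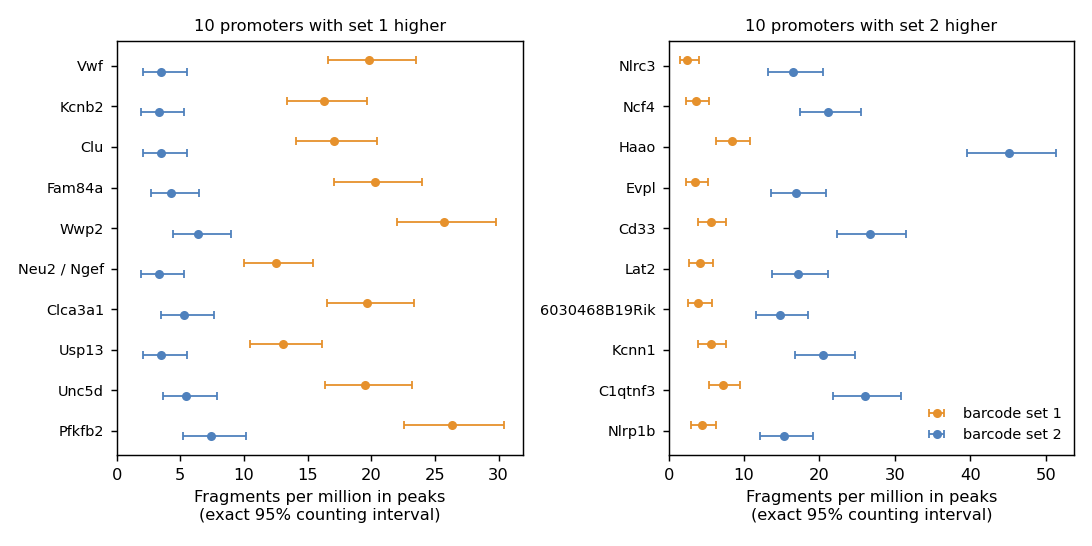
Points give estimated FPM in barcode set 1 (orange) and set 2 (blue) for the 10 promoters with the largest ratio in each direction among those with at least 100 fragments, with exact 95% counting intervals as bars. The 20 promoters were chosen as called, so that the intervals of the sets do not overlap follows from the choice. Haao has the highest level, 45.1 FPM in set 2.

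Called promoters were less CpG-rich and less widely open than promoters at large. Each peak was classed by the window at the main start of its gene, which can lie outside the peak. Of the tested promoter peaks, 63.3% were CpG-rich, whereas 37.6% of those higher in set 1 and 26.1% of those higher in set 2 were. Median CpG ratios were 0.496 and 0.286, against 0.711 for all tested. Promoters with few fragments are also poorer in CpG, and with at least 100 and under 200 fragments the medians were 0.470, 0.320 and, for promoters not called, 0.605. With at least 50 and under 100 fragments they were 0.528, 0.284 and 0.526, so that promoters higher in set 1 and those not called were close there. The median share of thinned cells was 3.59% for promoters higher in set 1, 1.99% for those higher in set 2 and 9.40% for all tested, with maxima of 17.8% and 19.3% among the called. Those maxima belonged to the peak of Peg3 and Usp29, with 549 fragments in set 1 and 139 in set 2, and to Arhgap30, with 218 and 467. Peaks shared by 2 or more genes made up 9.10% of the tested promoters and 1.61% and 1.26% of those called.

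Words were counted at the main start of each gene, which can lie outside the called peak. No correction was made for the 13 words searched. Only for GAGGAAGT did the intervals of the called groups not overlap. It was found in 23 of 231 windows of genes higher in set 2 (9.96%, 95% exact interval 6.42% to 14.6%) and in 5 of 185 higher in set 1 (2.70%, 0.883% to 6.19%), against 3.18% of all windows. In CpG-poor windows the shares were 12.1% and 3.48%, and that of all CpG-poor genes with a promoter peak was 4.28%. TGTGGTT had 9.52% (6.07% to 14.1%) and 4.86% (2.25% to 9.03%), with intervals that overlap, against 4.95% of all windows. CATTCC had 15.6% and 16.8%, against 12.98%. In CpG-poor windows its shares were 15.6% and 19.1% (12.4% to 27.5%), against 15.3% of CpG-poor genes with a promoter peak.

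Counts of called members in the gene lists stand beside 1.17% and 1.495% of all tested promoter peaks called higher in set 1 and set 2, at which most lists of this size would hold 0 or 1 call. Of the 19 tested peaks of genes associated with old LT-HSCs, 5 were higher in set 1, at Vwf, Clu, Clca3a1, Nupr1 and Amotl2, and 0 in set 2, with a median log2 ratio of 0.68 against 0.01 over all promoter peaks. This list was drawn from genes known in old stem cells and from the study's own interest, so its direction is not independent evidence. Nupr1, a stress-induced chromatin protein gene, had 76 fragments in set 1 and 14 in set 2 (log2 ratio 2.04). The most open promoters of the list, Jun at 62.9% and Alcam, an adhesion molecule gene, at 37.4%, had log2 ratios of 0.07 and 0.01. The lowest were Slamf1 at 1.76% and Nupr1 at 2.52%.

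In the Hippo pathway, where the kinases Stk3, Stk4, Lats1 and Lats2 restrain the coactivators YAP and TAZ, 1 of 19 tested peaks was called, higher in set 1. Over all tested promoter peaks the share was 1.17%, and 1 call is too few to compare with it. Amotl2, which encodes a binding partner of these coactivators, had 357 fragments in set 1 (52.4 FPM) and 111 in set 2 (21.6 FPM), for a log2 ratio of 1.28 (0.77 to 1.82). Wwtr1, the gene of TAZ, had a promoter open in 16.0% of cells with a log2 ratio of 0.48, and Yap1 one open in 5.81% with 0.17. Vgll4 at 26.2% and Nf2 at 23.5% were the most open of the list, and Amotl1 at 1.76% and Tead4 at 4.35% the least open. The median log2 ratio of the list was 0.14.

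Of the multipotent progenitor genes, 1 of 10 tested peaks was called, Cd48 with 16 and 37 fragments (log2 ratio -1.61, -3.22 to -0.20). The promoter of Flt3, a growth factor receptor gene of progenitors, stood at 9.08% and 20.0% of thinned cells, and its log2 ratio of -0.94 (-1.41 to -0.48) was under the 2-fold limit. Cd34 had a ratio of -0.78 (-1.43 to -0.13). Cdk6 at 21.01% and Notch1 at 12.7% were near equal between the sets, with 0.07 and -0.11. The LT-HSC list had 0 calls in 15 peaks and a median log2 ratio of 0.19, the megakaryocyte list 1 of 10, at Vwf, and Hox genes 2 of 37, Hoxa5 (155 and 48 fragments) and Hoxb7 (83 and 27), both higher in set 1. At the shares over all promoter peaks, counts of 0 to 2 in lists of this size say little about a list. No tested peak was called in the B-cell (4), erythroid (5), neutrophil and monocyte (10), MHC class II (8) or cell cycle (23) lists.

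The T and NK cell list stood apart, with 5 of 7 tested peaks higher in set 2 and a median log2 ratio of -2.93. Zap70, a kinase of the T-cell receptor, had 4 fragments in set 1 and 39 in set 2. Prf1, which encodes perforin, had 4 and 38, Nkg7 7 and 49, and Klrb1c 5 and 26. Lck had 2 promoter peaks, with 4 and 23 and with 15 and 31 fragments, of which the first was called. Cd3d, the sixth gene with a peak, had 200 and 195 fragments (-0.37), while Cd3e, Cd3g, Cd4, Cd8a and Gzma had no promoter peak. These signals met in the same cells of set 2: 24 of 636 cells (3.77%, 95% exact interval 2.43% to 5.56%) had a cut site in at least 3 of the 7 peaks, and 54 (8.49%) in at least 2. In set 1, 0 of 818 cells had 3 or more, which allows a share of up to 0.450%, and 6 (0.733%) had 2 or more.

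The cells with at least 2 of these peaks had a median of 23765 counts in set 2 and 30850 in set 1, against 12755 and 13358.5 over all cells of the sets. With these 60 cells left out, an alternative chosen after the data were seen, 184 promoter peaks were higher in set 2 and 171 in set 1, and 171 and 137 of these were among those called with all cells. None of the 7 T and NK peaks was then called, but the same peaks had chosen the cells. Zap70 was left with 2 and 16 fragments and a log2 ratio of -3.65 (interval -9.75 to -0.60), and was not tested because it held under 20 fragments. The ratios of Prf1 and Klrb1c were -2.82 and -2.14, with intervals that included 0. The shares of promoter peaks called were then 1.08% for set 1 and 1.16% for set 2, and over all peaks tested 2.96% for set 1 and 4.38% for set 2. All 20 named promoters kept their call. The corresponding shares of cells with 3 or more peaks of the B-cell list were 0.611% in set 1 and 0.629% in set 2, and of the neutrophil and monocyte list 11.0% and 12.9%. Summed over the 3 defining T or NK cell markers with a promoter peak, of 7 examined, the levels were 3.97 FPM in set 1 and 20.6 FPM in set 2. The part of these cells in the other calls, beyond the counts given here, was not tested.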

How the data were processed

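The authors processed the scATAC-seq reads with Cell Ranger ATAC 1.2.0, per the labels, on mm10 (GRCm38), and deposited counts of cut sites per peak and cell barcode, with no normalization stated. Whether both libraries were equalised in depth is not given in the sources used here. Of 2 deposited tables, 1 was used. The other has rows without peak names and was not used here. Columns were treated as 1 pool of the CLCA3A1high and CLCA3A1low samples, since no label ties a barcode suffix to a sample.

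Cells held a median of 13358.5 counts in set 1 and 12755 in set 2, with a range of 224 to 136173. Of the values above 0, 88.7% were even, so fragments were estimated as counts halved and rounded up. No cell was removed, no doublet caller was run, and 57 cells exceeded 3 times the median counts. For shares of cells, 4899 counts, the 10th percentile over cells, were drawn at random from every cell, and 145 cells with fewer were left out. Shares and fragments have exact Clopper-Pearson or Poisson intervals for counting error only.

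Promoter peaks were found with GENCODE protein-coding transcript starts, 1000 bp on either side. A gene's main start is its principal transcript. The 8 most open promoters, the 10 largest ratios in each direction with at least 100 fragments, the lowest, highest and called members of the lists, and cell type markers are named. The Peg3 and Arhgap30 peaks, genes with high CpG and no peak, Olfr552, and further list members were named after their values were seen. The members and lists were chosen with earlier results of these data known. Unique 31-base words of each window were counted over the genome. Scripts ran in Python 3.11.15 with numpy 2.4.6, pandas 2.3.3 and scipy 1.17.1, and the set comparison was tested on simulated data.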

Additional observations from a re-analysis of the deposited data

How the results depend on the processing

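The number of promoter peaks apart between the barcode sets depends on the limits used. Against 186 higher in set 1 and 238 in set 2, an exact 95% interval gave 352 and 363, a limit of 1.5-fold gave 407 and 405, a minimum of 100 fragments gave 104 and 73, and cells thinned to equal depth gave 77 and 71, of which 61 and 59 were among the main calls. Counts of cut sites as deposited gave 313 higher in set 1 and 342 in set 2. Thinning discards most fragments by construction. With a median of ratios in place of the total, 178 and 244 were called. Without the 57 cells over 3 times the median counts, 186 were higher in set 1 and 175 in set 2, of which 148 and 166 were among the main calls. The 20 named promoters kept their call in all 140 values under the 7 alternatives that change the counts or their scaling. The other 6 could not lose a call for peaks still counted as promoters, since the promoters were chosen as called and well covered. With 500 bp on either side, the named peaks of Pfkfb2, Kcnn1 and C1qtnf3 no longer counted as promoter peaks and had no value. Motif word shares rose in a longer window, as given with them. The median share of cells open at a promoter peak rose from 8.79% to 14.9% at 2 times the thinned depth and to 15.7% without thinning. The share of genes without a promoter peak, 29.6%, was 30.9% with 500 bp, 23.9% with 5000 bp, 32.5% with 1 start per gene, 30.7% and 37.6% with peaks seen in at least 1% or 5% of cells, and 24.8% without windows of under 50% unique words, and 28.99% without the Y chromosome, the last pair chosen after the data were seen. No paired analysis was possible because each set is 1 library, and no replicate could be left out.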

Other observations

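Of 2269 genes with more than 1 promoter peak, 0 had peaks called in opposite directions, and 22 had a called peak with at least 100 fragments and another such peak whose interval of the ratio, at an error rate of 0.001, did not overlap. The 22 genes were looked for after the data were seen. The 2269 genes were counted without a minimum of fragments, and the share over other pairs of promoter peaks was not computed. At 1.17% and 1.495% of tested promoter peaks called higher in set 1 and set 2, opposite calls within a gene would be rare. In 5 the called peak was higher in set 1 and in 17 in set 2, and in 22 of 23 pairs it was open in fewer cells than the other peak. The choice of pairs favors this outcome. Among promoter peaks with at least 100 fragments, calls became rarer as fragments rose. A partner with many fragments also has a narrower interval, which overlaps less easily. The count of 22 therefore cannot show that called promoters are the less open ones of their genes. At Wwp2, the peak chr8:107543653-107545762 held 175 fragments in set 1 and 33 in set 2 (log2 ratio 2.00), while that at chr8:107435569-107437557 held 164 and 118 (0.07). At Arhgef1, chr7:24906755-24908004 had 68 and 145 fragments (-1.497) and chr7:24902270-24905389 had 566 and 423 (0.02). Icam2, an adhesion molecule gene, had 228 and 60 fragments (1.52) at chr11:106381030-106383616 and 171 and 139 (-0.11) at chr11:106386704-106388553. Lsp1, a leukocyte cytoskeleton gene, had 223 and 67 (1.33) at 1 promoter and 92 and 116 (-0.74) at the other, which was the pair in which the called peak was the more open.

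The imprinted Peg3 region of chromosome 7, where the active copy depends on the parent of origin, had 2 called promoter peaks, both higher in set 1. Over all tested promoter peaks, 1.17% were called higher in set 1. The Peg3 peak was named after its values were seen, and the tested promoter peaks of the region were not counted. The peak shared by Peg3 and Usp29, chr7:6727265-6730705, was open in 23.9% of thinned cells of set 1 and 9.64% of set 2 (log2 ratio 1.58, 1.13 to 2.05). Zim1, a neighbor in the same region, had 71 and 11 fragments at chr7:6696298-6696789 (log2 ratio 2.29, 0.85 to 4.15).

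On the Y chromosome the table held 9 peaks in all, with 442 fragments in set 1 and 550 in set 2, and none lay at a protein-coding start. The promoters of Ddx3y, Eif2s3y, Kdm5d and Uty had no peak. The mice were female by the study's methods, so these genes are not expected in the cells, and what the 9 peaks hold was not tested.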
